A study of Mus musculus with 3 samples.

Results

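Lepr, the gene of the leptin receptor, was followed across fetal and adult mouse bone marrow (BM). It is 1 of 125 targets of a custom gene panel with at least 1 counted molecule. The gene was selected on its measured pattern, that is its error-corrected molecule counts per cell (DBEC counts, from which molecules with few reads are removed) in all 3 libraries, and was found by its symbol, so its levels are a description and carry no test. A Lepr molecule was counted in 391 of 4038 cells of the fetal endothelial cell (EC) library, in 126 of 12844 cells of the fetal BM library and in 2593 of 7939 cells of the adult BM library.

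The leptin receptor is a cytokine receptor that crosses the membrane once and binds the adipocyte hormone leptin. Its long form carries the intracellular tail that signals through JAK2 and STAT3, and its short forms share the extracellular part. In adult marrow Lepr is best known as a marker of perivascular reticular stromal cells, which make the chemokine CXCL12 and stem cell factor, the product of Kitl, and so form a niche for haematopoietic stem cells.

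The study asked which cells of the marrow express Wnt ligands, receptors and cell type markers before birth and in the adult, and measured single cells by targeted RNA sequencing with molecular identifiers. There were 3 libraries, 1 for each group, all from wild-type C57/B6 mice. E18.5 EC held cells of embryos of stage E18.5 sorted as endothelial, by CD31 in the methods and by CD31 and endomucin in the design text. E18.5 BM cells held marrow cells of embryos of that stage, and Adult BM cells those of adult mice (age not given in the sources used here), both after magnetic removal of cells that carried lineage antigens. For whole-transcriptome libraries the methods describe further removal steps for adult marrow, with CD45 among the antigens. Whether these steps were used for the targeted libraries is not stated, so fetal and adult marrow may have been prepared differently. Animals were pooled within each library, so no value has a replicate, and every interval below is a 95% interval that covers counting error only.

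The gene lies at chr4:101717404-101815352 on the plus strand of GRCm38 (mm10), and GENCODE vM21 lists 7 transcripts, of which 4 are protein-coding. The coding sequences of 3 of these have 3489, 2679 and 2685 bases, and that of the other has 91. The panel holds 1 Lepr amplicon, which the files name after the transcript Lepr-202. The 3 longer coding sequences run together up to base 101792070. From there Lepr-202 reads on within the same exon, whereas Lepr-201 and Lepr-203 each continue in another last exon. The ends of the 3 coding sequences are shown because they are where receptor forms with and without the signalling tail part. The last 60 shared bases are in lower case and the coding bases particular to each form, stop codon included, are in capitals.
Lepr-201: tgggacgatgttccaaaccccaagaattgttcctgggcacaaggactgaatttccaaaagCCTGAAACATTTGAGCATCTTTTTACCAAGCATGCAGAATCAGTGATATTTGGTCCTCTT
Lepr-202: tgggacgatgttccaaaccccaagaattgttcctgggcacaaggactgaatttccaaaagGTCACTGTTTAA
Lepr-203: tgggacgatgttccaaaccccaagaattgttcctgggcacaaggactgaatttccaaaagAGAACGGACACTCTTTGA
Lepr-201 encodes the long form of 1162 residues, and only the first 60 of its 822 own bases are shown. Lepr-202 and Lepr-203 encode short forms of 892 and 894 residues, with 3 and 5 codons of their own before the stop. The sequence of the amplicon is not given in the sources used here, so the values below stand for the Lepr target as named and were not assigned to a form.

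The number of panel molecules per cell had a median of 83 in the sorted fetal ECs, 97 in the fetal BM library and 242 in the adult library, with totals of 432987, 1837897 and 6304495. Cells were clustered within each library without Lepr and Kitl, and clusters were called endothelial-like, stromal-like or Ptprc cells by their markers. Pecam1 was counted in every cell of the endothelial-like class in all 3 libraries, and Ptprc, which encodes the leukocyte antigen CD45, in 88.9% to 98.9% of the Ptprc cells. Clusters inside the endothelial-like and stromal-like classes are called subsets and are named by the panel gene that stood out in them, with no cell type implied. The libraries shared 58 (both fetal), 38 (E18.5 EC and adult) and 113 (E18.5 BM and adult) cell barcodes.

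Lepr was found in ECs before birth and, at a far higher level, in Cxcl12-rich stromal cells of the adult. Levels are given as Lepr molecules per 10000 molecules of all panel targets in the same cells. In E18.5 EC, 437 of the 443 Lepr molecules lay in the 3031 endothelial-like cells, at a level of 16.0 (14.5 to 17.6). In E18.5 BM cells the 376 endothelial-like cells had a level of 9.62 (6.66 to 13.4) and the 1510 stromal-like cells one of 2.64 (2.22 to 3.12). In Adult BM cells the 1583 endothelial-like cells stood at 3.67 (2.90 to 4.58) and the 3762 stromal-like cells at 29.6 (29.0 to 30.2). In the fetal marrow library the endothelial-like level exceeded the stromal-like one 3.64-fold (2.42 to 5.32). In molecules per cell, however, these 2 classes held 0.0904 and 0.0927, and their ratio was 0.975 (0.650 to 1.43). In the adult library the stromal-like cells had the higher value on both scales, with 2.65 molecules per cell against 0.0493.

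Ptprc cells, which carry haematopoietic markers, were taken as the background of each library. They held 3 Lepr molecules among 982 cells in E18.5 EC, 7 among 10929 cells in E18.5 BM cells and 14 among 1734 cells in Adult BM cells. Their levels were 0.197 (0.0406 to 0.576), 0.0552 (0.0222 to 0.114) and 0.745 (0.407 to 1.25). The level of the fetal ECs exceeded that of the Ptprc cells of the same library 81.2-fold, with an interval of 27.6 to 395 that is wide because the Ptprc cells held only 3 molecules. In E18.5 BM cells the stromal-like level exceeded that of the Ptprc cells 47.9-fold (22.6 to 121). In Adult BM cells the endothelial-like level exceeded that of the Ptprc cells 4.92-fold (2.77 to 9.42). No alternative was run for this last ratio, and the order of the corresponding shares of cells, given below, did not hold in every alternative.

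**Figure D1:**
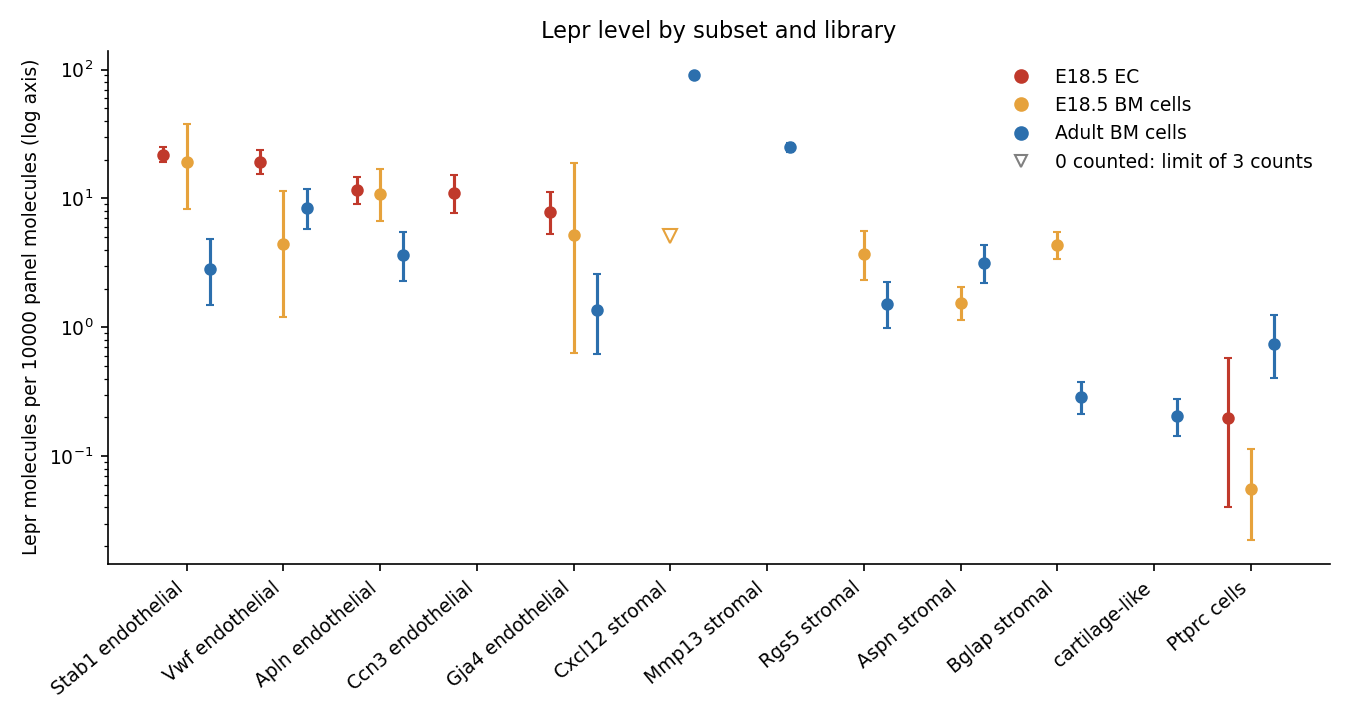
Lepr molecules per 10000 panel molecules (log axis) in each endothelial-like subset, stromal-like subset, cartilage-like cells and Ptprc cells, coloured by library; points are levels of all cells of a subset together, bars are exact 95% Poisson intervals for counting error only, and the open triangle is the limit that a count of 0 allows. Red points of E18.5 EC lie between 7.89 and 21.8 in the endothelial-like subsets, and the highest blue point is the Cxcl12 subset of Adult BM cells at 90.5.

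Among the sorted fetal ECs the highest levels were in the subsets with Stab1 and Vwf. Stab1 encodes stabilin-1, a scavenger receptor of sinusoidal endothelium, Vwf the von Willebrand factor of endothelial granules, Apln the ligand apelin, and Gja4 connexin 37, a gap junction protein of arterial endothelium. In E18.5 EC the Lepr level was 21.8 (19.0 to 24.9) in the 1253 cells of the Stab1 subset, from 218 molecules. It was 19.3 (15.4 to 23.9) in the 519 cells of the Vwf subset and 11.7 (9.06 to 14.8) in the 578 cells of the Apln subset. It was 11 (7.77 to 15.2) in 408 cells led by Ccn3, a matricellular protein gene, and 7.89 (5.32 to 11.3) in the 273 cells of the Gja4 subset. In this order the Stab1 and Vwf subsets did not differ beyond counting error (ratio 1.13, 0.875 to 1.47), the intervals of the Apln and Ccn3 subsets overlapped, and so did those of the Ccn3 and Gja4 subsets. The Stab1 subset exceeded the Gja4 subset 2.77-fold (1.88 to 4.2) and all other fetal ECs of the library 1.73-fold (1.43 to 2.09). As molecules per cell, the last ratio was 1.41 (1.17 to 1.71).

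The Stab1 subset of E18.5 EC was made of 2 subclusters. The smaller one, of 242 cells, had a Lepr level of 28.5 (22.3 to 35.9) and a Vwf level of 535. The larger one, of 1011 cells, had a Lepr level of 19.6 (16.5 to 23) and a Vwf level of 47.0. The smaller subcluster exceeded the larger 1.45-fold (1.08 to 1.94).

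The fetal BM library gave a second sample of ECs at the same day. Its endothelial-like level was 0.602 times that of E18.5 EC (0.411 to 0.853). Its Stab1 subset stood at 19.2 (8.29 to 37.8) from 8 molecules in 51 cells, and its Apln subset at 10.9 (6.65 to 16.8) from 20 molecules in 181 cells. Both differed from the same subsets of E18.5 EC by less than counting error, with ratios of 0.880 (0.375 to 1.76) and 0.934 (0.537 to 1.56). The Vwf subset held 4 Lepr molecules in 107 cells, a level of 4.45 (1.21 to 11.4) and 0.231 times (0.0614 to 0.613) that of the Vwf subset of E18.5 EC, a difference beyond counting error. Its Vwf level was 106, against 780 in E18.5 EC, so the name stands for less Vwf here. The Gja4 subset held 2 Lepr molecules in 37 cells.

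Adult ECs had less Lepr, and the order of the subset names was another. The endothelial-like level of E18.5 EC exceeded that of Adult BM cells 4.36-fold (3.42 to 5.62), and 25.9% of 81 targets were at least 2-fold higher in that comparison. In molecules per cell the ratio was 2.93, from 0.144 in E18.5 EC and 0.0493 in Adult BM cells. The Vwf subset had the highest adult level among the 4 subsets, 8.43 (5.84 to 11.8) from 34 molecules in 346 cells. The Apln subset stood at 3.65 (2.29 to 5.53) in 484 cells, the Stab1 subset at 2.81 (1.5 to 4.81) in 413 cells and the Gja4 subset at 1.36 (0.623 to 2.59) in 340 cells. The Vwf subset was made of 2 subclusters, one of 217 cells with a Lepr level of 12.5 (8.38 to 18.0) and one of 129 cells, with more Gja4, at 2.91 (0.946 to 6.80), which is close to the Stab1 subset. The adult Vwf subset as a whole exceeded the Stab1 subset 2.99-fold (1.54 to 6.18), while the intervals of the Apln and Stab1 subsets overlapped. The adult Gja4 interval overlapped both that of the Stab1 subset and that of the adult Ptprc cells.

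For each of the 4 subset names the Lepr level was higher in E18.5 EC than in Adult BM cells. E18.5 EC was sorted as endothelial and Adult BM cells was not, so stage and sorting cannot be told apart here. In the unsorted E18.5 BM cells the Vwf subset, at 4.45 (1.21 to 11.4), lay below the adult 8.43 (5.84 to 11.8), with overlapping intervals. The Stab1, Apln and Gja4 subsets of that library lay above the adult ones, at 19.2, 10.9 and 5.22, the last from 2 molecules. The Vwf and Apln names do not stand for like cells in both libraries. The Vwf subset had a Stab1 level of 651 in E18.5 EC and 57.2 in Adult BM cells, and a Cxcl12 level of 5.97 and 669. The Apln subset had an Apln level of 880 and 153, and a Stab1 level of 187 and 463. The ratios that follow therefore compare subsets by name only. The ratio was 7.75 (4.44 to 14.8) in the Stab1 subset, 5.79 (2.68 to 13.9) in the Gja4 subset, 3.19 (1.95 to 5.43) in the Apln subset and 2.29 (1.52 to 3.52) in the Vwf subset. Whether these ratios differ from each other was not tested. In the adult the Stab1 subset did not exceed the other ECs (ratio 0.721, 0.365 to 1.32), and this value lay above 1 with fixed marker gates in place of clusters (2.93), with less strict error correction (1.33) or none (1.22), with 20 principal components (1.10) and with no minimum per cell (1.06). The ratio of all ECs between the libraries shrank to 1.5 and 1.77 when molecules with less strict error correction or none were counted, and to 2.13 with the marker gates.

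At equal depth the libraries stood in the same order by their share of ECs with Lepr. Each cell was thinned at random to 50 molecules, and cells with fewer were left out, which kept 2284 of the 3031 ECs in the sorted fetal library, 300 of 376 in the fetal BM library and 1497 of 1583 in the adult library. A Lepr molecule then remained in 7.05% (6.03 to 8.18) of the sorted fetal ECs, in 4.33% (2.33 to 7.30) of the ECs of fetal BM and in 1.47% (0.923 to 2.22) of the adult ECs. Unthinned, these cells had medians of 74, 82 and 108 molecules, and Lepr was counted in 12.7%, 8.24% and 3.92% of them. The Ptprc cells, at median depths of 121.5, 89 and 90, gave 0.221%, 0.0114% and 0.550% after thinning and 0.305%, 0.0640% and 0.807% before it. The share of fetal ECs with Lepr was above that of the Ptprc cells in both fetal libraries, although the ECs were the shallower cells. In the adult library this order depended on the processing. Over the alternatives run, the thinned share ranged from 1.33% to 5.94% in adult ECs and from 0.398% to 6.86% in adult Ptprc cells. Where the adult Ptprc share was highest, the adult ECs did not exceed it.

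By subset, the thinned shares in E18.5 EC were 8.48% for Stab1, 8.95% for Vwf, 5.36% for Apln, 5.32% for Ccn3 and 4.13% for Gja4. The Stab1 and Vwf shares stand in the other order than their levels, and their intervals overlap. In Adult BM cells the shares were 3.82% for Vwf (1.99 to 6.58), 1.30% for Apln (0.479 to 2.81) and 1.03% for Stab1 (0.282 to 2.62). The adult Apln and Stab1 shares overlapped the interval of the Ptprc cells (0.252 to 1.04). In the adult Gja4 subset 0 of 334 cells kept a Lepr molecule, which allows a share of up to 0.898%.

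**Figure D2:**
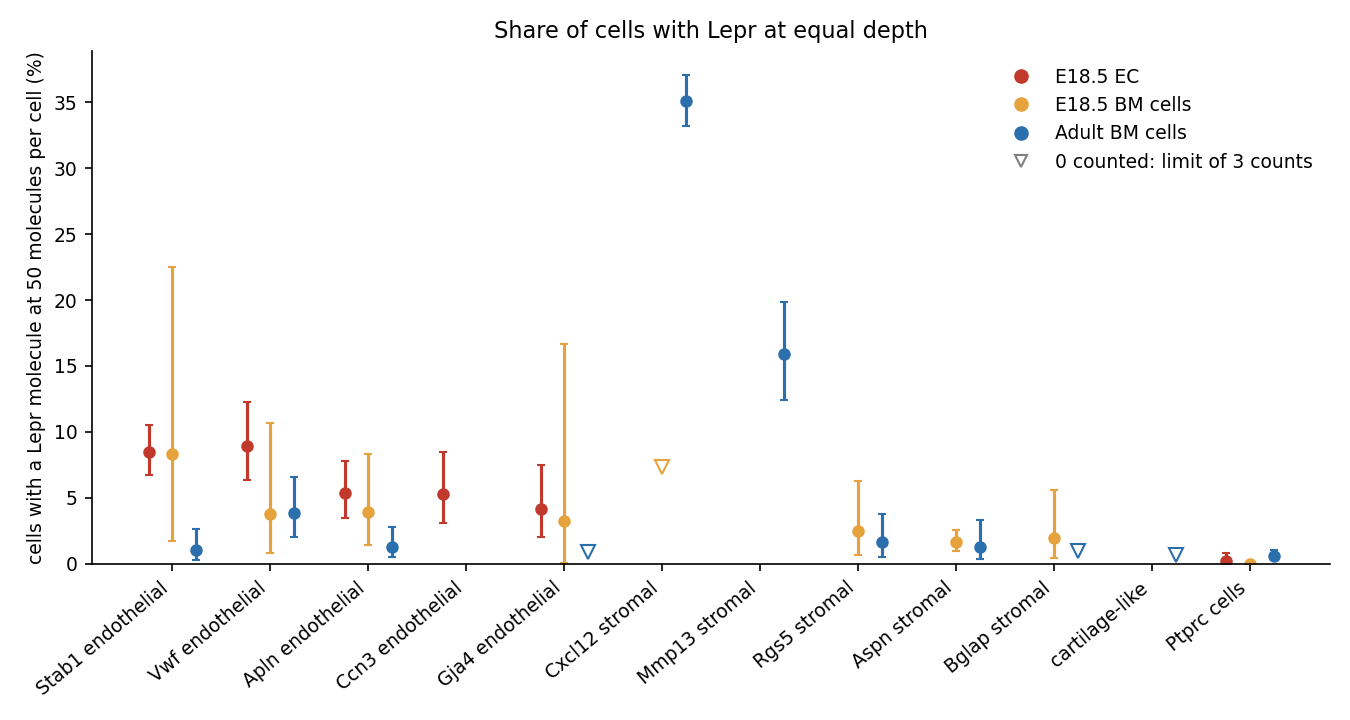
Share of cells (%) with a Lepr molecule after each cell was thinned to 50 panel molecules, by subset and library; bars are exact 95% binomial intervals for counting error only, and open triangles are limits where no cell kept a Lepr molecule. The Cxcl12 subset of Adult BM cells reaches 35.1% and the adult Mmp13 subset 15.9%, while no other point lies above 8.95%.

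In adult stroma Lepr was concentrated in the Cxcl12 subset. This subset held 2427 cells and 9234 Lepr molecules, which is 89.8% of all Lepr molecules of the library, at a level of 90.5 (88.6 to 92.3). A Lepr molecule was counted in 89.2% of its cells (87.9 to 90.4) and remained in 35.1% (33.2 to 37.1) after thinning. Its level exceeded that of the other stromal-like cells 29.3-fold (27.1 to 31.6), in a comparison in which 38.4% of 99 targets were at least 2-fold higher, and that of the adult ECs 24.7-fold (19.8 to 31.3). Set against the ECs of E18.5 EC, in another library, it was 5.66-fold higher (5.14 to 6.24). The ratio to the other stromal-like cells was 7.02 as molecules per cell and 7.07 without the Bglap subset, whose cells had a median depth of 5598, against 379 in the Cxcl12 subset. It was 8.39 with less strict error correction and 166 without the Mmp13 subset, described next.

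The other adult stromal-like subsets lay far apart from each other. A subset led by Mmp13, the gene of a collagenase of bone-forming and hypertrophic cartilage cells, had 610 Lepr molecules in 404 cells and a level of 25.0 (23 to 27.1). It was itself rich in Cxcl12, at a level of 2545, against 5772 in the Cxcl12 subset. Cp, the ceruloplasmin gene, stood at 52.9 against 53.4 and Kitl at 172 against 441. Its Bglap level was 43.0. The subset of Aspn, a small proteoglycan of fibroblasts, stood at 3.16 (2.23 to 4.36) in 312 cells. The subset of Rgs5, a pericyte marker, stood at 1.53 (0.988 to 2.25) in 308 cells. The subset of Bglap, which encodes osteocalcin of osteoblasts, stood at 0.286 (0.214 to 0.375) in 311 cells and cartilage-like cells at 0.204 (0.144 to 0.280) in 433 cells. The Cxcl12 subset exceeded the Mmp13 subset 3.62-fold (3.34 to 3.94), the Aspn subset 28.6-fold (20.8 to 40.7) and the Rgs5 subset 59.3-fold (40.1 to 91.6). Among these subsets and classes, the Bglap and cartilage-like levels were below the level of the adult Ptprc cells. In molecules per cell the Bglap subset held 0.167 and the Ptprc cells 0.00807, so this order depended on the scale.

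The Lepr content of single cells differed as much as the levels. In the adult Cxcl12 subset 263 cells held no Lepr molecule, 372 held 1, 400 held 2 and 139 held 10 or more, with a maximum of 24 in the library. In the Mmp13 subset 180 of 404 cells held none and 5 held 10 or more. Among the 385 Lepr-positive ECs of E18.5 EC, 344 held 1 molecule and the maximum was 4. Of the 62 Lepr-positive adult ECs, 51 held 1 molecule. The Cxcl12 subset consisted of 2 clusters, of 1552 and 875 cells, whose Lepr levels of 88.5 and 94.8 had a ratio of 1.07 (1.03 to 1.12). In molecules per cell the ratio was 0.874 (0.836 to 0.912), so their order depended on the scale.

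**Figure D3:**
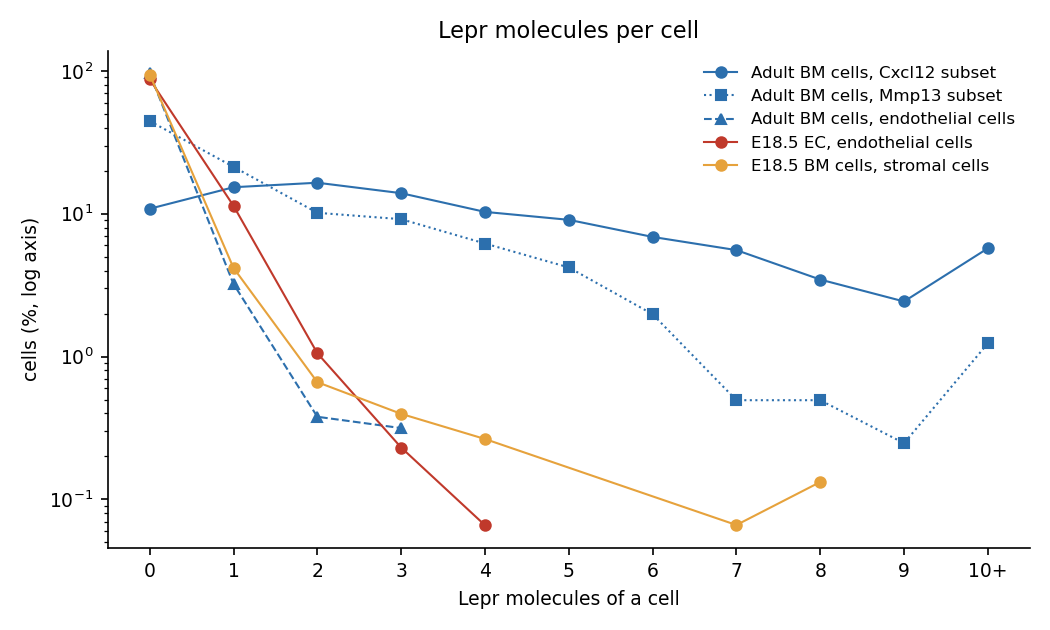
Percent of cells (log axis) holding each number of Lepr molecules, without thinning, for 5 groups of cells; counts held by no cell are not drawn and the last point sums 10 or more. The curve of the adult Cxcl12 subset peaks at 2 molecules, whereas the endothelial-like cells and the fetal stromal-like cells have most cells at 0.

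Fetal stromal-like cells had Lepr levels of at most 4.32 in each subset. The stromal-like level of E18.5 BM cells was 0.0893 times that of Adult BM cells (0.0750 to 0.105), that is 11.2-fold lower (9.48 to 13.3), with 18.4% of 103 targets at least 2-fold lower. The fetal Aspn subset, with 1131 cells, stood at 1.55 (1.13 to 2.06) from 46 molecules. The Rgs5 subset stood at 3.68 (2.31 to 5.58) from 22 molecules in 161 cells. A subset in which Bglap stood out, but which was led by Col10a1 and Mmp13, genes of hypertrophic cartilage and early bone, stood at 4.32 (3.38 to 5.44) from 72 molecules in 169 cells. In this last subset 10 cells held 47 of the 72 molecules. The Bglap and Rgs5 subsets overlapped (ratio 1.17, 0.719 to 1.99), and both exceeded the Aspn subset, 2.79-fold (1.90 to 4.14) and 2.38-fold (1.36 to 4.04).

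No fetal stromal-like subset had Cxcl12 or Lepr levels near those of the adult Cxcl12 subset. The fetal subset in which Cxcl12 stood out held 49 cells, was led by Sema3g and Col22a1, and had a Cxcl12 level of 81.9, against 5772 in the adult subset. It held 0 Lepr molecules, which allows a level of up to 5.12. In E18.5 BM cells 13 stromal-like cells had more than 10% of their molecules from Cxcl12, and they held 4 Lepr molecules. All 4 lay in the 5 cells above 30%, where the Lepr level was 33.5 (4.06 to 121) in 4 cells with 30% to 50% Cxcl12 and 122 (14.8 to 441) in 1 cell with 50% to 70%. These intervals overlap the adult levels at the same Cxcl12 content, given below, and rest on very few molecules. In Adult BM cells 2696 stromal-like cells had more than 10% Cxcl12, and they held 9808.

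The Aspn and Rgs5 subsets of fetal and adult stroma were compared directly. The fetal Aspn level was 0.489 times the adult one (0.311 to 0.776), but 10 of the adult cells held 29 of the 37 adult molecules, with up to 10 in a cell, so a few cells carry this value. The fetal Rgs5 level was 2.41 times the adult one (1.30 to 4.46), and 1.68 times (0.905 to 3.11) in molecules per cell. The Bglap subsets were unlike each other, with Bglap levels of 36.9 in the fetal and 2757 in the adult one, so no ratio is given for them. After thinning, the shares of fetal cells with Lepr were 1.62% (0.960 to 2.54) for Aspn, 2.50% (0.685 to 6.28) for Rgs5 and 1.96% (0.406 to 5.62) for Bglap. Those of adult cells were 1.30% (0.355 to 3.29) for Aspn and 1.63% (0.531 to 3.76) for Rgs5, and 0 of 311 for Bglap, which allows up to 0.965%. The fetal and adult intervals overlapped for Aspn and Rgs5, and the fetal Bglap interval reached below the adult limit, so a difference in shares was not detectable at this depth.

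Across adult stromal-like cells Lepr followed Cxcl12 in steps. In cells without a Cxcl12 molecule the Lepr level was 0.331 (0.208 to 0.501), and in cells with up to 1% Cxcl12 molecules it was 0.423 (0.322 to 0.545). It was 4.79 (3.73 to 6.06) in cells with 1% to 10%, 28.3 (23.7 to 33.4) with 10% to 30% and 88.4 (84.6 to 92.5) with 30% to 50%. Above that it did not go further up, with 87.6 (85.5 to 89.7) at 50% to 70% and 81.4 (76.0 to 87.0) above 70%. From 30% on, the Lepr molecules per cell in these bins were 3.95, 3.72 and 3.04. Cxcl12 is part of the molecules that a level is divided by, which lowers the level where Cxcl12 takes a larger share. Lepr relative to the targets other than Cxcl12 was not computed. In E18.5 BM cells the 859 stromal-like cells without Cxcl12 had a Lepr level of 2.37 (1.88 to 2.95). The 351 with up to 1% stood at 3.03 (2.15 to 4.17), and both levels were above the adult ones. The 287 with 1% to 10% stood at 2.80 (1.63 to 4.48), which overlaps the adult level. In molecules per cell, the bins without Cxcl12 and with up to 1% held 0.0943 and 0.108, against 0.0503 and 0.136 in the adult.

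In the adult library Cxcl12 molecules were also counted in cells of other classes, in 31.0% of the Ptprc cells and in 69.0% of the ECs. The ratio of Lepr to Cxcl12 was therefore compared between cells, a comparison chosen after the data were seen. The adult Cxcl12 subset held 15.7 (15.4 to 16.0) Lepr molecules per 1000 Cxcl12 molecules, and the adult Ptprc cells held 15.9 (8.68 to 26.9). The adult Stab1 ECs held 16.1 (8.56 to 27.8), cartilage-like cells 14.7 (10.4 to 20.3) and the Bglap subset 19.2 (14.3 to 25.3). The Vwf ECs held 12.6 (8.71 to 17.7) and the Rgs5 subset 11.3 (7.31 to 16.8). Other groups had intervals that left out 15.7. The Gja4 ECs, which had a Cxcl12 level of 1148, held 1.19 (0.543 to 2.26), and the Aspn subset held 63.1 (44.0 to 88.1). The Apln ECs held 34.4 (21.4 to 52.5), the Mmp13 subset 9.82 (9.05 to 10.6) and clusters given no class 9.59 (5.67 to 15.2). The part of free RNA of the Cxcl12-rich cells in these adult values was not tested. In E18.5 EC the endothelial-like cells held 191 (172 to 211) Lepr molecules per 1000 Cxcl12 molecules, and their Stab1 subset held more Lepr than Cxcl12.

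**Figure D4:**
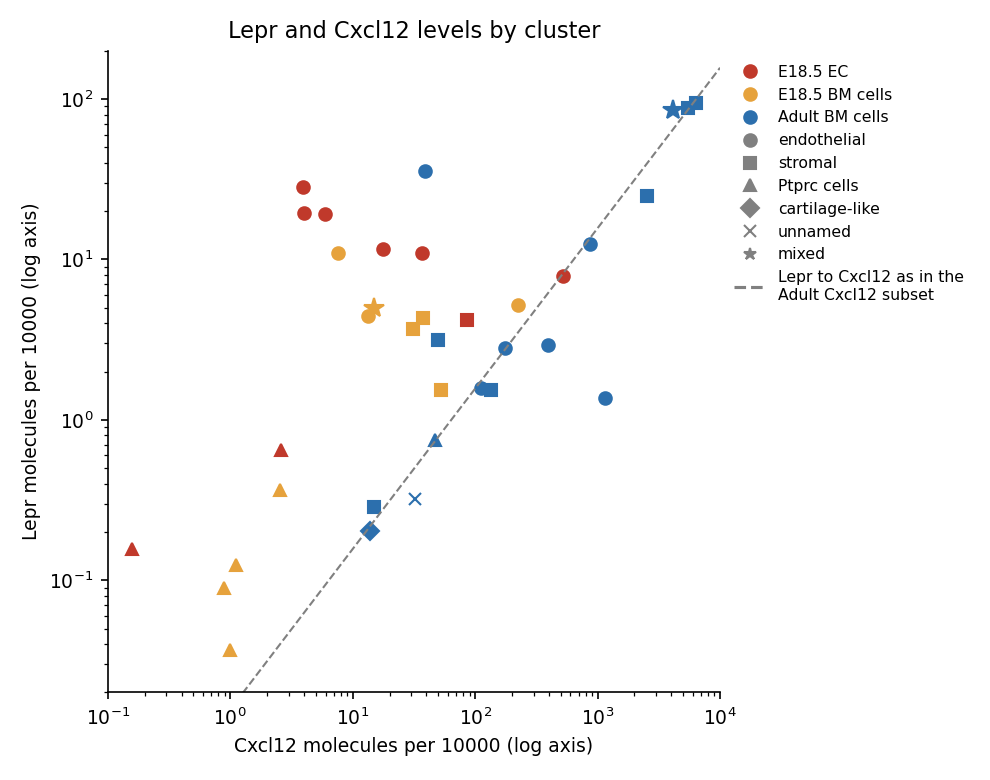
Lepr against Cxcl12 molecules per 10000 panel molecules (both log axes) for each cluster or subcluster in which both were counted, coloured by library and shaped by class; the dashed line is the Lepr to Cxcl12 ratio of the adult Cxcl12 subset, 15.7 per 1000. Several blue adult points of other classes lie close to the line, whereas red fetal endothelial-like points lie above it, except the Gja4 subset at 15 per 1000, which is near it.

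Adult ECs without any Cxcl12 molecule were looked at for this reason. They numbered 491 and held 21 Lepr molecules, at a level of 3.82 (2.36 to 5.84). Of these, 12 lay in 19 cells of the larger Vwf subcluster, where the Lepr level was 64.8 (33.5 to 113) and the Vwf level 2010. Another 6 lay in 13 cells of a small Apln subcluster of 23 cells led by S100a4 and Apln, whose Lepr level over all its cells was 35.9 (19.1 to 61.3). The remaining 4 subclusters had 459 such cells with 3 Lepr molecules. The small subcluster held 13 of the 22 Lepr molecules of the adult Apln subset. Its level exceeded that of the other 461 cells of the subset 22.6-fold (8.92 to 59.8).

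A group of 39 adult cells with both endothelial and Cxcl12-subset markers was kept apart from the ECs. It had a Lepr level of 85.7 (73.5 to 99.2), a Cxcl12 level of 4106 and a Stab1 level of 127. If these cells were counted as ECs, the adult endothelial-like level came within 1.46-fold of that of E18.5 EC. No doublet caller was run, and whether these were 2 cells under 1 barcode was not tested.

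Other genes of the reticular stroma could be read only in part. Of 21 genes that mark Lepr stroma or its niche factors, 7 are on the panel, and Adipoq and Esm1 among them had 1 and 2 molecules in the adult Cxcl12 subset. Of the 5 with enough molecules, 3 were at least 2-fold higher in the Cxcl12 subset than in other adult stromal-like cells and 0 lower, with a median ratio of 7.79, against 1.41 over all targets, of which 38.4% were higher and 37.4% lower. Cxcl12, Cp and Spp1 were themselves used to find the clusters, and the median of 7.79 is the ratio of Cp. Of the higher genes, only Kitl was not used to find them. Kitl stood at 441 against 29.6, and Cp, which encodes ceruloplasmin, at 53.4 against 6.85. Ptn, the gene of the growth factor pleiotrophin, stood at 1.11 against 0.786, and Spp1, the gene of osteopontin, at 509 against 325. None of 11 genes of leptin signalling is on the panel, so nothing can be said of signalling through the receptor.

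Between fetal and adult stroma the same 5 genes went apart. Relative to Adult BM cells, 2 were at least 2-fold higher and 3 at least 2-fold lower in the fetal stromal-like cells, with a median ratio of 0.491, against 3.78 over all targets, of which 62.1% were higher and 18.4% lower. Ptn had a level of 248 in the fetal and 0.883 in the adult cells, and Spp1 had 1526 and 381. Cxcl12 had 45.5 and 1953, Cp 0.925 and 21.0, and Kitl 75.9 and 155. In ECs, 1 gene was higher in E18.5 EC than in Adult BM cells and 3 were lower, with a median ratio of 0.285 against 1.05 over all targets, of which 25.9% were higher and 33.3% lower. The higher one was Ptn, 60.3 against 10.2, and Kitl was close in both, 369 against 317.

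The targets whose levels were most like those of Lepr over 47 clusters of all libraries were Kitl (Spearman's rho 0.806), Fbln5 (0.765), Fbn1 (0.723), Igfbp7 (0.713) and Cdh13 (0.636). Fbln5 and Fbn1 encode the matrix proteins fibulin 5 and fibrillin 1, Igfbp7 a secreted binding protein and Cdh13 the T-cadherin. The correlations are a description over clusters that share libraries and depth, and they rest in part on the contrast with the Ptprc cells. Without the clusters of Ptprc cells rho over 33 clusters was 0.621 for Kitl and lower for the others. It was 0.462 for Fbln5, 0.413 for Fbn1, 0.397 for Igfbp7 and 0.321 for Cdh13. In the same order from Kitl on, these 5 targets then ranked 2, 7, 10, 12 and 24. Within the 11 stromal-like clusters rho for Kitl was 0.673, and within the 16 endothelial-like ones -0.126. Kitl therefore went with Lepr among stromal-like clusters and not among ECs.

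**Figure D5:**
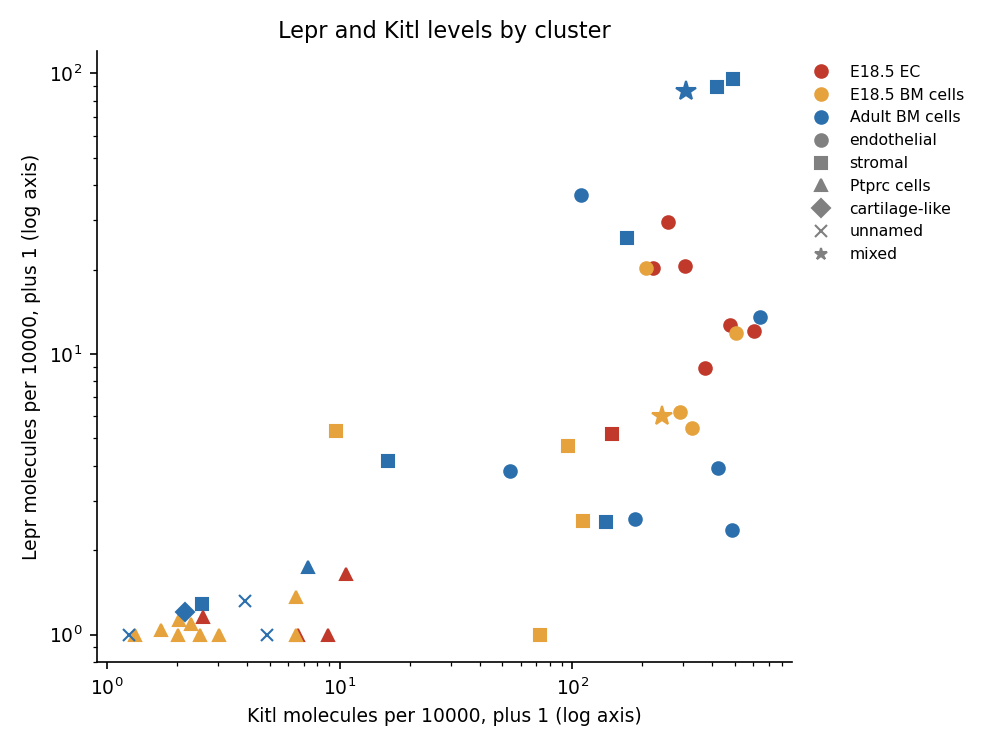
Lepr against Kitl molecules per 10000 panel molecules, each plus 1 (log axes), for the 47 clusters or subclusters with at least 20 cells, coloured by library and shaped by class. Ptprc cells lie at the lower left and the adult Cxcl12 clusters at the top right, and among the endothelial-like points those with more Lepr do not have more Kitl (rho -0.126).

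Inside the adult Cxcl12 subset, cells in which Lepr was drawn at equal depth, in a single random draw, were set against the rest. The 852 cells with Lepr after thinning had a median depth of 371 molecules, and the other 1574 had 379. Of 80 other targets, 6 (7.5%) had a higher level in the Lepr cells and 15 (18.8%) a lower one, by an interval of the ratio that leaves out 1. The largest ratios were those of Panx3 (2.48, 1.46 to 4.26) and Acan (2.19, 1.41 to 3.42), genes of a pannexin channel and of cartilage aggrecan, with 35 and 47 molecules in the Lepr cells. Col2a1, the gene of cartilage collagen, had a ratio of 1.60, but 158 of its molecules lay in 1 cell. Cp had a ratio of 1.18 (1.11 to 1.24) and was counted in 81.5% of the Lepr cells and 78.6% of the rest. Cxcl12 and Kitl had ratios of 1.0 (0.997 to 1.01) and 0.996 (0.977 to 1.02).

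The lowest ratios in that comparison were those of blood cell and endothelial genes and of a cell cycle gene. They were 0.327 (0.195 to 0.522) for Ptprc, 0.456 (0.412 to 0.504) for Srgn, the gene of the granule proteoglycan serglycin, and 0.489 (0.236 to 0.936) for Mmp9. Sema3g, a semaphorin gene of arterial endothelium, had 0.501 (0.233 to 0.991) and Mki67, a marker of dividing cells, 0.541 (0.397 to 0.728). Ptprc was counted in 1.41% of the Lepr cells and in 2.73% of the rest. With all molecules in place of thinned cells, 33 targets passed in place of 21, and 3 of the 16 that passed in both had the opposite direction.

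In E18.5 EC, ECs with Lepr at equal depth were set against the other ECs in the same way. Among 60 other targets, 13 (21.7%) had a higher level in the 161 Lepr cells than in the other 2123 and 15 (25%) a lower one. Wnt2, a Wnt ligand gene, had a ratio of 3.22 (2.41 to 4.26) and Stab1 one of 1.88 (1.78 to 1.99). Hey1, a Notch target gene of arteries, had a ratio of 0.322 (0.228 to 0.442), Gja4 one of 0.586 (0.499 to 0.685) and Kitl one of 0.748 (0.678 to 0.822). Mgp, the gene of matrix Gla protein, had 0 molecules in the Lepr cells and a level of 89.6 in the rest. Within the Stab1 subset, 28 of the 75 Lepr cells lay in the smaller subcluster, which had a Wnt2 level of 134 against 1.88 in the larger one. Inside the smaller subcluster the Wnt2 ratio was 1.19 (0.872 to 1.60), an interval that includes 1. Stab1 had ratios of 1.65 (1.51 to 1.81) inside the smaller and 1.19 (1.07 to 1.32) inside the larger subcluster. The genes of this paragraph were chosen after their values were seen.

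In the fetal Bglap subset the 30 cells with Lepr were deeper than the other 139, with medians of 1201 and 432 molecules. As levels, they had more Cxcl12, 78.0 against 26.2, more Hey1, 17.4 against 3.84, and more Kitl, 16.1 against 6.6. They had less of the cartilage genes Col2a1, 93.0 against 894, and Acan, 1.11 against 57.8. These genes too were chosen after their values were seen, and the part of depth in which cells showed Lepr was not tested.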

How the data were processed

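Single-cell libraries were made by the authors with a custom targeted panel on the BD Rhapsody platform. Per the file headers, the deposited tables come from the BD Targeted Rhapsody Analysis Pipeline 1.8, which lists counts of reads and molecules for every cell and target. Molecules are given raw, with substitution errors merged (RSEC), and with molecules of few reads then removed by a distribution-based step (DBEC). The labels name mm10. DBEC counts were summed per cell and gene symbol and used as deposited. They gave 443, 183 and 10284 Lepr molecules, or 20.7%, 32.0% and 29.0% of the raw Lepr molecules, in the sorted fetal, fetal BM and adult BM libraries, against 21.2%, 41.6% and 35.9% over all targets. Reads per Lepr molecule numbered 124, 34.7 and 22.8.

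Cells under 20 molecules or 5 targets were left out (5, 40 and 9). Each library was clustered on its own (11 principal components, 20 neighbours, Leiden resolution 0.5, igraph 0.11.9, scikit-learn 1.9.0) without Lepr, Kitl, Ptn, cell cycle and Wnt targets. This gave 10, 14 and 15 clusters, and endothelial-like cells were clustered again. Thresholds for naming classes and subsets were set after the clusters were seen, and the Ccn3 and Mmp13 subsets were added then. Clusters with markers of 2 classes were set aside as mixed. No doublet caller was run.

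Levels carry exact Poisson intervals, shares exact binomial (Clopper-Pearson) intervals and ratios exact conditional intervals (SciPy 1.17.1), all at 95% and for counting error only. A count of 0 was given the limit of 3 counts. With 1 library per group no test was made and no p-value is given. Ratios over targets used those with at least 50 molecules and a fold of 2. Named genes were Lepr, the 8 subset genes, the 5 targets most correlated with Lepr, the 5 highest and 5 lowest ratios within the adult Cxcl12 subset and the panel members of 2 lists. A gene that this rule names is not reported here. Genes outside the rule are named in the comparisons of fetal cells with and without Lepr, as leading targets of a subset or as class markers, and were chosen after their values were seen. The gene and the lists were chosen with earlier results of these data known. The code was tested on simulated data.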

Additional observations from a re-analysis of the deposited data

How the results depend on the processing

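No paired analysis was possible because each group holds 1 library. Of the 8 level ratios, the values below moved by more than counting error, and no ratio whose main interval leaves out 1 turned its direction under any alternative run. The causes were not tested. For the adult Cxcl12 subset over other stromal-like cells (29.3), the value was 8.39 with RSEC-adjusted molecules, 14.2 with raw molecules, 143 with no minimum per cell, 51.2 with at least 50 molecules per cell, 109 at resolution 1.0, 52.2 with 20 principal components, 243 with marker gates in place of clusters and 10.4 without the deepest 5% of cells. For that subset over adult ECs (24.7), it was 8.57 with RSEC-adjusted and 11.7 with raw molecules, 19.6 with no minimum and 8.90 with gates. For the adult Stab1 subset over other ECs (0.721), it was 1.33 with RSEC-adjusted molecules and 2.93 with gates. For ECs of E18.5 EC over Adult BM cells (4.36), it was 1.5 with RSEC-adjusted and 1.77 with raw molecules and 2.13 with gates. For fetal over adult stromal-like cells (0.0893), it was 0.133 with gates and 0.0479 without the deepest cells. For ECs over Ptprc cells in E18.5 EC (81.2), it was 7.44 with RSEC-adjusted and 14.8 with raw molecules. For stromal-like over Ptprc cells in E18.5 BM cells (47.9), it was 9.06 and 10.2 with these molecules and 15.5 with gates. Alternatives chosen after seeing the data were molecules per cell (in the same order, 7.02, 77.2, not moved, 2.93, 0.0350, not moved and 145, and 1.41 for the fetal Stab1 subset over other ECs), mixed cells kept among ECs (8.25, 0.217 and 1.46 for the 3 ratios with adult ECs), adult stroma without the Mmp13 subset (166) or the Bglap subset (7.07, and 0.0412 for fetal over adult) ECs without 1 subcluster, and Lepr cells inside each fetal Stab1 subcluster. The thinned share of the adult Cxcl12 subset exceeded that of the ECs of E18.5 EC by 28.1 percentage points at 50 molecules per cell, by 17.8 at 30 and by 43.5 at 100. Targets that set Lepr cells apart numbered 21 with thinned and 33 with all molecules. Of 30 thinned shares, 8 moved beyond their intervals at 30 molecules per cell and 10 with RSEC-adjusted molecules, and 13 of the 28 that could be had at 100 molecules per cell. Few Lepr molecules, 3 to 14 in the Ptprc cells of a library, limit every ratio to them.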
